A study of Homo sapiens with 54 samples.

Results

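CP14 and CP18, 2 compounds known here only by their codes, were set directly against each other at the same dose of 2.5 µM in A549 cells that stably carried a USP18 expression vector. The 6 libraries were taken by their labels alone, 3 with CP14 and 3 with CP18, out of 54 in the whole series, and no vehicle library entered any value. The study treated A549 cells, an established line of human lung adenocarcinoma, for 48 h with vehicle or a coded compound, in cells with a USP18 vector or with an insertless (empty) vector, at 1, 2.5 or 5 µM for CP14 and CP18. The study's question was which small molecules inhibit USP18 and what they do to lung cancer cells, and the labels do not say which compound stands behind either code. RNA was sequenced in bulk with 3 replicates per group. All 6 main libraries share the USP18 vector, the dose and the 48 h of treatment and differ only in the compound. Each vector is represented by 1 engineered population. The labels do not say that replicates were separate cultures, so the p-values measure the spread between libraries, which may be technical. Since vehicle libraries were left out, a gene described as higher with CP14 is higher than with CP18, and whether 1 compound raised it or the other lowered it is not addressed. In bulk RNA, fewer cells that express a gene and less RNA per cell cannot be told apart.

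USP18 is the protease that takes the ubiquitin-like protein ISG15 off its targets, and it also restrains signalling from the type I interferon receptor. β-Lapachone is a quinone that the reductase NQO1 reduces in a futile cycle, which uses up NAD(P)H and makes reactive oxygen species. When cells sense amino acid shortage or other stress, kinases that phosphorylate eIF2α slow general translation and favour the transcription factor ATF4, whose targets make and import amino acids.

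The 6 libraries held between 17225820 and 24067954 expected counts, and 15029 genes passed the filter on low counts. USP18 (chr22:18150118-18177397, plus strand, GRCh38) was measured at 1194, 1205 and 1178 CPM with CP14 and 1072, 1091 and 1036 CPM with CP18, in TMM-scaled CPM (counts scaled to a common library size). The CP14 libraries were all slightly above the CP18 libraries (log2 fold change 0.16, SE 0.0329, adjusted p = 0.0038). In empty-vector cells under the same compounds USP18 averaged 10.9 ± 1.48 CPM (SD, n = 3) and 10.5 ± 0.334 CPM, and in USP18 cells at 1 and 5 µM its level was between 948 and 2107 CPM, so the 24 libraries used matched their vector labels. On the first principal component, which held 42.8% of the variance, the compounds separated fully, and CP14 replicate 1 lay farthest out at -26.57, against -17.78 and -14.99 for the other CP14 libraries and 15.04 to 23.44 for CP18. Of the 12 lung epithelial and carcinoma markers 10 were above 3 counts, among them KRT7, KRT8 and KRT18, while the surfactant genes SFTPB and SFTPC were not, and the 12 together summed to 14100 to 14600 CPM with CP14 and 15600 to 16100 CPM with CP18. The 7 immune markers summed to 47.1 to 59.4 CPM with CP14 and 35.1 to 39.1 CPM with CP18, nearly all of it from the lysosomal gene CD68, with CD3E at 0. The 7 fibroblast markers summed to 7.35 to 8.23 CPM and 9.18 to 10.7 CPM, and the 6 endothelial markers to at most 0.417 CPM. The part of these cell type markers in the results was not tested.

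The compounds differed in many genes by a little and in few genes by much. A call needed an adjusted p under 0.05 in edgeR's quasi-likelihood test and an absolute log2 fold change over 1, and 196 genes met it, which is 1.30% of the genes tested. Of these, 155 were higher with CP14 (1.03% of genes tested) and 41 were lower (0.273%). Without the demand on size, 3895 genes passed the adjusted p (25.9%), 1886 of them higher with CP14 (12.5%) and 2009 lower (13.4%). All passing genes were thus close in number on both sides, but the larger differences were mostly higher with CP14 and the smaller ones more often lower. Among the passing genes 721 differed by more than 0.5 on the log2 scale, 551 upward, and 24 by more than 2, 18 upward. The groups did not overlap in 42.0% of all genes tested (20.9% higher and 21.1% lower with CP14), and in 193 of the 196 called genes. The genes higher with CP14 comprised 120 protein-coding genes, 34 long non-coding RNAs and 1 unclassified transcript. Those lower with CP14 comprised 32 protein-coding genes, 6 long non-coding RNAs, 1 snoRNA and 2 pseudogenes. All adjusted p-values in the text are from edgeR's test with Benjamini-Hochberg adjustment over all genes tested unless DESeq2 is named. CP14 replicate 1 was the CP14 library farthest from CP18 in 115 of the 196 called genes, and without it 158 genes were called.

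**Figure D1:**
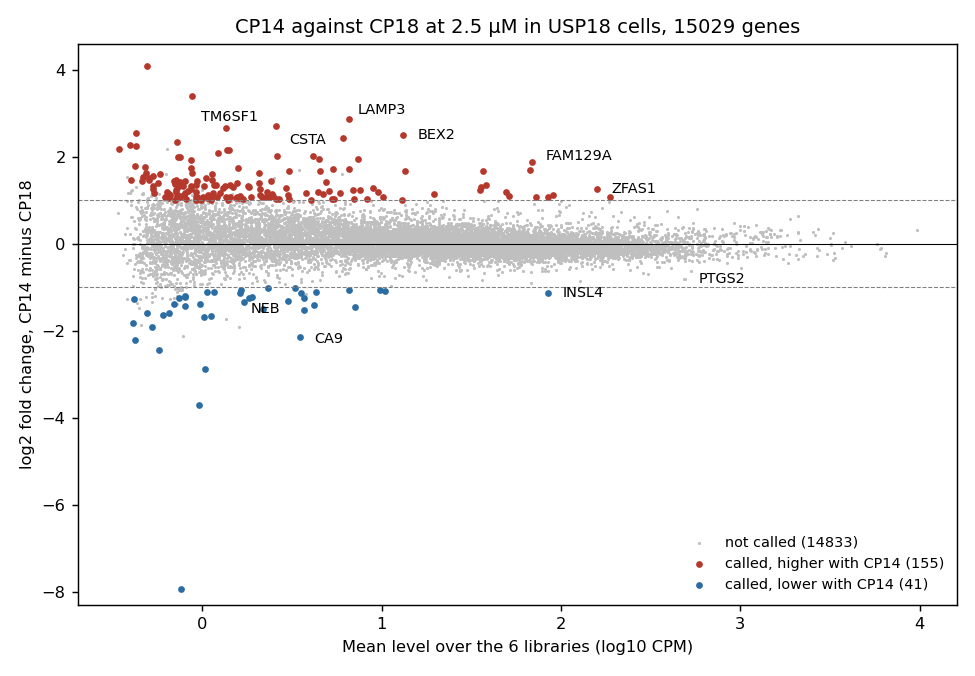
Each dot is 1 of the 15029 genes tested, with its mean level over the 6 libraries on the horizontal axis (log10 CPM) and the log2 fold change of CP14 against CP18 on the vertical axis; dashed lines mark the call threshold of 1 in each direction. The 155 called genes above the upper line outnumber the 41 below the lower line, and the lowest dot belongs to a gene listed at 0 in all CP14 libraries, whose fitted value depends on the prior count.

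LAMP3, a lysosomal membrane glycoprotein of activated dendritic cells (chr3:183122215-183163839), had the largest difference upward among genes named by the fixed rule. It was measured at 16.2, 8.79 and 9.48 CPM with CP14 and 1.97, 1.81 and 1.04 CPM with CP18. Every CP14 library exceeded every CP18 library, with CP14 replicate 1 the highest (log2 fold change 2.87, SE 0.277, adjusted p = 3.89e-05). BEX2, an X-linked adaptor protein of the brain-expressed family (chrX:103309346-103311007), stood at 30.5, 20.4 and 16.2 CPM with CP14 and 4.77, 3.33 and 3.75 CPM with CP18. Its groups did not overlap either (log2 fold change 2.5, SE 0.219, adjusted p = 2.48e-05). CSTA, the cysteine protease inhibitor cystatin A (chr3:122325248-122341969), had 11.1, 9.88 and 9.80 CPM with CP14 and 2.02, 2.04 and 1.67 CPM with CP18. The 3 CP14 libraries lay close together and far above the CP18 libraries (log2 fold change 2.43, SE 0.140, adjusted p = 2.43e-06). FAM129A, a stress-induced gene also called NIBAN1 (chr1:184790724-184974508), reached 138, 101 and 85.1 CPM with CP14 and 29.3, 27.8 and 30.2 CPM with CP18, with no overlap (log2 fold change 1.89, SE 0.137, adjusted p = 9.73e-06).

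TNFRSF9, the costimulatory receptor 4-1BB, was low in all libraries, at 3.13, 2.14 and 1.73 CPM with CP14 and 0.311, 0.467 and 0.333 CPM with CP18, yet the groups were separate (log2 fold change 2.66, SE 0.349, adjusted p = 0.000228). TM6SF1 differed by 2.72 on the log2 scale, IL31RA, a subunit of the interleukin-31 receptor, by 2.02, and CLMP, an adhesion molecule of cell junctions, by 1.96. COL13A1, a transmembrane collagen, differed by 2.34, LCN2, the siderophore-binding lipocalin 2, by 2.16, and ANO1, a calcium-activated chloride channel, by 2.15. KLHL35, of the kelch-like family, and ABLIM3, an actin-binding LIM protein, completed the 12 with 2.09 and 2.03, and the adjusted p of these 8 genes ran from 2.6e-05 to 0.00166. ZFAS1, a long non-coding RNA that hosts snoRNAs in its introns (chr20:49278178-49299600), was measured at 261, 216 and 194 CPM with CP14 and 96.7, 90.9 and 93.2 CPM with CP18. The CP14 libraries lay far above the CP18 libraries, which were nearly alike (log2 fold change 1.26, SE 0.0824, adjusted p = 5.19e-06).

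Fewer genes were much lower with CP14. INSL4, a placental peptide of the relaxin family (chr9:5231419-5235304), was measured at 41.2, 53.4 and 65.7 CPM with CP14 and 123, 114 and 113 CPM with CP18. The CP14 values spread more widely than the CP18 values but stayed below all of them (log2 fold change -1.13, SE 0.113, adjusted p = 4.55e-05). CA9, the cell surface carbonic anhydrase IX that hypoxia induces (chr9:35673928-35681159), stood at 0.759, 1.68 and 1.41 CPM with CP14 and 5.60, 6.54 and 5.04 CPM with CP18. Its CP14 libraries all lay well below its CP18 libraries (log2 fold change -2.15, SE 0.236, adjusted p = 8.49e-05). NEB, which encodes the giant muscle protein nebulin, had 1.99, 2.14 and 2.49 CPM with CP14 and 4.93, 4.90 and 5.75 CPM with CP18 (log2 fold change -1.25, SE 0.165, adjusted p = 0.000243). The groups were apart. RASD1, a Ras-like protein that glucocorticoids induce, differed by -1.51, the somatostatin receptor SSTR2 by -1.25, the nucleoside transporter SLC28A2 by -1.33, the synaptogyrin family member SYNGR4 by -1.37 and the glycosyltransferase family member MGAT4C by -1.05. DCC, the netrin receptor, was low throughout, with 0.237, 0.319 and 0.433 CPM with CP14 and 0.830, 0.992 and 1.12 CPM with CP18, and its log2 fold change was -1.58 with adjusted p = 0.00801. The other genes that the rule names on this side can share reads with near-identical or overlapping genes, so their levels are uncertain. HSPE1-MOB4 (-2.87) is a read-through of 2 neighbours and had 0 counts in CP14 replicate 1. SRP9P1 (-1.68) is a pseudogene, ANKRD20A2 (-1.66) belongs to a family of copies, and AC067968.1 (-1.49), AC116366.3 (-1.46) and AC002996.1 (-1.30) carry only clone names. ANKRD20A2, AC067968.1, AC002996.1 and SYNGR4 missed the adjusted p in at least 1 alternative fit.

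**Figure D2:**
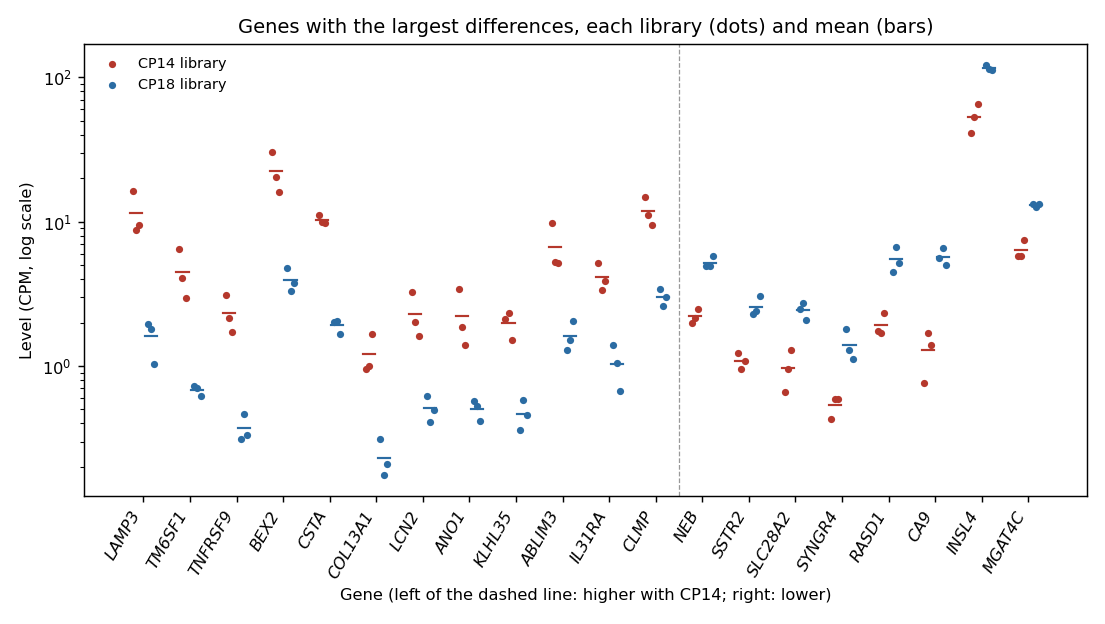
Levels of 20 genes, chosen by the size or the p of their difference, in each of the 6 libraries (dots, CPM on a log axis) with the mean of each compound (bars). The 12 genes left of the dashed line were higher with CP14 and the 8 right of it lower. The 3 CP14 dots and the 3 CP18 dots of a gene do not overlap, which was a condition for naming it, for example CSTA with 9.80 to 11.1 CPM against 1.67 to 2.04 CPM.

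Genes of the amino acid response were higher with CP14 almost throughout. Of 42 measured genes of the ATF4 list, 37 were higher and 1 lower at adjusted p under 0.05, against 12.5% and 13.4% of all genes tested. Of the 42, 5 were called higher, against 1.03% of all genes tested. The median log2 fold change of the list was 0.44, against 0.00416 for all genes tested. ASNS, asparagine synthetase, was measured at 288, 232 and 215 CPM with CP14 and 129.8, 124 and 122 CPM with CP18. Each CP14 library was above each CP18 library (log2 fold change 0.97, SE 0.0823, adjusted p = 2.15e-05). PHGDH, the first enzyme of serine synthesis from glucose, had 149, 135 and 125 CPM with CP14 and 73.7, 76.5 and 76.1 CPM with CP18, also without overlap (log2 fold change 0.85, SE 0.0568, adjusted p = 5.19e-06). ALDH1L2, a mitochondrial enzyme of folate metabolism, was one of the 5 called members, with 64.3, 53.4 and 47.6 CPM with CP14 and 22.8, 20.2 and 21.8 CPM with CP18 (log2 fold change 1.35, SE 0.0960, adjusted p = 9.39e-06). Other enzymes followed with smaller sizes: PCK2, mitochondrial PEP carboxykinase, at 0.92, PSAT1, the next enzyme of serine synthesis, at 0.76 and MTHFD2, of mitochondrial folate metabolism, at 0.49. Among secreted products ADM2, the peptide hormone adrenomedullin 2, differed by 1.71 and STC2, stanniocalcin 2, by 1.30. The glycine transporter SLC6A9 differed by 1.24 and the glutathione-degrading enzyme CHAC1 by 1.07. Among regulators, TRIB3 differed by 1.00 (just under the size for a call), ATF3 by 0.71, DDIT3 (CHOP) by 0.57 and ATF4 itself by 0.21. The member that was lower was SLC38A2, a neutral amino acid transporter, at -0.15. SLC7A11, CTH, SLC3A2 and NUPR1 did not pass, with 0.16, -0.28, 0.13 and 0.46. Without any 1 library in turn, between 31 and 39 members were higher.

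The promoters of ASNS (chr7:97872359-97872658, minus strand) and CHAC1 (chr15:40953221-40953520, plus strand) are shown because they carry the composite site TGATGNAAN of C/EBP and ATF factors, in capitals, which starts 68 and 210 bases before the gene's start. They run 5′ to 3′ on the gene's strand from 250 bases before the RefSeq start to 50 bases past it (GRCh38.p14), and in CHAC1 the site reads on the opposite strand.
ASNS: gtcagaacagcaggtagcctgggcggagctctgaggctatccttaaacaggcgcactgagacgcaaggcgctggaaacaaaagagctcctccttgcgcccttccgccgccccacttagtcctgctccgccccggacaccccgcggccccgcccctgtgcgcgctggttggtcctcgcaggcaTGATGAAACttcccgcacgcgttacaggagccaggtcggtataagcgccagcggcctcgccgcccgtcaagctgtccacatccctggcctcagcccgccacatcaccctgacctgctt
CHAC1: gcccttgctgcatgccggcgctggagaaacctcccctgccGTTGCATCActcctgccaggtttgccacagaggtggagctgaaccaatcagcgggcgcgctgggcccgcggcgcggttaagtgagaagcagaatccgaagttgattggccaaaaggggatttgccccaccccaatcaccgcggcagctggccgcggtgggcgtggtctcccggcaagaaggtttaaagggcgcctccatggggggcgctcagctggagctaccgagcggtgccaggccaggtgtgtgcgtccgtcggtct

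NF-κB targets leaned the same way with 1 large exception. Of 23 measured cytokine and feedback genes 16 were higher with CP14 and 1 was lower, against 12.5% and 13.4% of all genes tested. The median was 0.36, and 3 members were called higher, against 1.03% of all genes tested. TNFRSF9 was described above. TRAF1, an adaptor of TNF receptors, had 5.88, 4.28 and 3.79 CPM with CP14 and 0.985, 2.10 and 1.33 CPM with CP18, and its lowest CP14 library was above its highest CP18 library (log2 fold change 1.68, SE 0.261, adjusted p = 0.000631). ICAM1, an adhesion molecule for leukocytes, differed by 1.08 from 3.37, 3.10 and 2.27 CPM with CP14 and 1.61, 1.34 and 1.21 CPM with CP18. The chemokine CXCL8 (interleukin-8) differed by 0.77, CXCL2 by 0.77, CCL2 by 0.71 and CXCL5 by 0.36. The feedback inhibitors TNFAIP3 (A20) and NFKBIA (IκBα) differed by 0.55 and 0.22. PTGS2, the inducible cyclooxygenase 2, went the other way, at 301, 357 and 407 CPM with CP14 and 626, 626 and 591 CPM with CP18. Its CP18 libraries were nearly alike and all above the CP14 libraries (log2 fold change -0.79, SE 0.0801, adjusted p = 4.7e-05). CCL20 (0.54), CXCL3 (0.26), NFKB1 (0.09) and CXCL1 (0.07) did not pass. Leaving out each library in turn left 14 to 16 members higher.

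The promoters of TNFRSF9 (chr1:7940790-7941089, minus strand) and TNFAIP3 (chr6:137867009-137867308, plus strand) are shown for the NF-κB pattern, in capitals, which is GGG and TTCC with any 3 bases between them. In TNFRSF9 the capitals are 2 overlapping matches, 1 on each strand, which start 74 and 73 bases before the gene's start, and in TNFAIP3 they are 2 separate matches on the opposite strand at 67 and 55 bases.
TNFRSF9: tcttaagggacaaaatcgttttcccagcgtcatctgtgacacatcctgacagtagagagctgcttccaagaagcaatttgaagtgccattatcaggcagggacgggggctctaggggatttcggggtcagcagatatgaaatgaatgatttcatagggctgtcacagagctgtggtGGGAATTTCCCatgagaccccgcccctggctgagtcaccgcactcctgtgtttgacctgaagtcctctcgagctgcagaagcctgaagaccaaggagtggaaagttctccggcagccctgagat
TNFAIP3: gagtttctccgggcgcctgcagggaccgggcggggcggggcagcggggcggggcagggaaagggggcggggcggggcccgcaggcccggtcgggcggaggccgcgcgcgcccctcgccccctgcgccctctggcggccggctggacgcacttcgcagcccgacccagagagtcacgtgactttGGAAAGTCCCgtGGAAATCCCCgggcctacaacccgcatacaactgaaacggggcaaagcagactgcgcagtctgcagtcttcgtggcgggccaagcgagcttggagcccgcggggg

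Mitosis genes were lower with CP14 as a body, each by a modest amount. Of 49 measured genes 44 were lower at adjusted p under 0.05 and none higher, all 49 had a negative log2 fold change, and the median was -0.35. This count and those of the S phase and tubulin lists below stand against 13.4% of all genes tested lower and 12.5% higher. No member reached the size for a call. PLK1, polo-like kinase 1, was measured at 89.4, 102 and 104 CPM with CP14 and 144, 149.5 and 138 CPM with CP18. The highest CP14 library was below the lowest CP18 library (log2 fold change -0.55, SE 0.0562, adjusted p = 5.3e-05). CCNB1, cyclin B1, had 184, 206 and 208 CPM with CP14 and 276, 275 and 267 CPM with CP18 (log2 fold change -0.45, SE 0.0471, adjusted p = 5.54e-05), again without overlap. The kinase AURKA differed by -0.52, PTTG1 (securin) by -0.54, BIRC5 (survivin) by -0.42 and CDK1 by -0.29. ASPM, MKI67, KIF14, CDC25C and TOP2A did not pass, with values from -0.30 to -0.12. DNA replication and S phase genes were lower in 26 of 48 and higher in none, with a median of -0.18. Among them thymidine kinase TK1 differed by -0.39 and the helicase subunit MCM5 by -0.31. Of 11 tubulin genes 7 were lower and 1 higher, with TUBA1B at -0.33 and TUBB4B at -0.31. Of 28 homologous recombination and checkpoint genes 3 were higher and 5 lower, a passing share of 28.6%, near the 25.9% of all genes tested (the 3 higher became 0 without CP18 replicate 1 or 2 and 1 without CP14 replicate 2 or 3, the 5 lower became 3 without CP18 replicate 1 or 3 or CP14 replicate 1, and DESeq2 gave 1 higher and 3 lower). Of 11 replication-dependent histone genes 2 were lower (18.2%, against 13.4% of all genes tested), HIST1H1C and HIST2H2BE, and both missed the adjusted p in DESeq2 and in every fit without 1 library except the fit without CP14 replicate 3. Without any 1 library in turn, between 38 and 48 mitosis genes passed as lower.

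The PLK1 promoter (chr16:23678639-23678938, plus strand) is shown for the cell cycle homology region TTNGAA, in capitals, which starts 29 bases before the gene's start.
PLK1: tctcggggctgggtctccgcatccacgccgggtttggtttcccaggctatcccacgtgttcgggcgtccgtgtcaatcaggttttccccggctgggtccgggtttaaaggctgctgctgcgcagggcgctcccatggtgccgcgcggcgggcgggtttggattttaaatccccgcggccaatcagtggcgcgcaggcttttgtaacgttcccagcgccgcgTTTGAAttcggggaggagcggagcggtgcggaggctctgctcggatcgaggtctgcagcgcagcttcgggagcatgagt

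Genes of cholesterol synthesis and its regulation were mostly lower with CP14. Of 25 measured genes 22 were lower and none higher, against 13.4% and 12.5% of all genes tested, with a median of -0.35. SREBF1, which encodes the lipogenic transcription factor SREBP-1, was measured at 145, 159.7 and 153 CPM with CP14 and 212, 228 and 206 CPM with CP18, with the groups apart (log2 fold change -0.50, SE 0.0484, adjusted p = 3.99e-05). HMGCS1, the enzyme that makes HMG-CoA, had 149, 167 and 170.0 CPM with CP14 and 219.9, 218 and 224 CPM with CP18 (log2 fold change -0.45, SE 0.0482, adjusted p = 6.8e-05). CP18 libraries were within a narrow band and CP14 libraries all below it. DHCR7, the last enzyme of the pathway, differed by -0.45. SC5D, TM7SF2 and PMVK did not pass, with 0.04, -0.05 and -0.02. Between 20 and 22 members were lower without each library in turn.

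Hypoxia and glycolysis genes were lower in 20 of 32 and higher in 2 (1 without CP18 replicate 1 or 3), against 13.4% and 12.5% of all genes tested. The median of the list was -0.22. Beside CA9, the largest passing differences were in ANKRD37, a HIF target (-0.92), SLC2A3 (-0.86) and ADM (-0.65). SLC2A3, the glucose transporter GLUT3, was measured at 77.9, 93.7 and 99.8 CPM with CP14 and 166, 166 and 159 CPM with CP18, with no overlap (log2 fold change -0.86, SE 0.0697, adjusted p = 1.7e-05). LDHA, lactate dehydrogenase A, had 1485, 1559 and 1616 CPM with CP14 and 2122, 2114 and 2110.0 CPM with CP18, and here too all CP14 libraries were below all CP18 libraries (log2 fold change -0.45, SE 0.0356, adjusted p = 1.5e-05). Glycolytic enzymes differed by less: PGAM1 by -0.40, ALDOA by -0.37, PGK1 by -0.33 and GAPDH by -0.11. ENO2 (0.25) and PFKP (0.15) were higher with CP14. VEGFA, NDRG1 and PDK1, which HIF also induces, did not pass, with 0.04, -0.07 and -0.07. The CA9 promoter (chr9:35673678-35673977, plus strand) is shown for the core ACGTG that HIF recognises, in capitals, which reads on the opposite strand and starts 18 bases before the gene's start.
CA9: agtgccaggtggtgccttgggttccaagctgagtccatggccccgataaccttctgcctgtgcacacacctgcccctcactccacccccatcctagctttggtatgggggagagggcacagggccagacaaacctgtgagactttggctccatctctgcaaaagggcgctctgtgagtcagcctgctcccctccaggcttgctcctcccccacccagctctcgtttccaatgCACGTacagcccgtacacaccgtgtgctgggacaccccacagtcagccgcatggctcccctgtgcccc

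Cytosolic ribosomal protein genes were higher with CP14 in 70 of 76 and lower in 1, against 12.5% and 13.4% of all genes tested. The median of the list was 0.22. RPL12 was measured at 1122, 1072 and 1013 CPM with CP14 and 770.5, 765 and 748 CPM with CP18, and RPS18 at 1211, 1113 and 1091 CPM with CP14 and 871, 841 and 868 CPM with CP18. Neither gene overlapped between the compounds, with log2 fold changes of 0.49 and 0.40. Ribosomal protein genes have many processed pseudogenes, so part of these counts is uncertain. The median was 0.21 with another scaling (RLE), and between 63 and 70 members were higher without each library in turn. The mitochondrially encoded genes were split, 4 higher and 4 lower of 15. MT-ND2, a subunit of respiratory complex I, was 0.64 and MT-CO3, a subunit of complex IV, was -0.38, and the 4 lower members became 1 without CP14 replicate 1 or CP18 replicate 1 or 2, and 7 without CP18 replicate 3. They became 1 in DESeq2 and in the fit of 36 libraries, and 7 with no filter on low counts. Mitochondrially encoded genes together held 2.93% to 3.67% of the counts of a library.

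**Figure D3:**
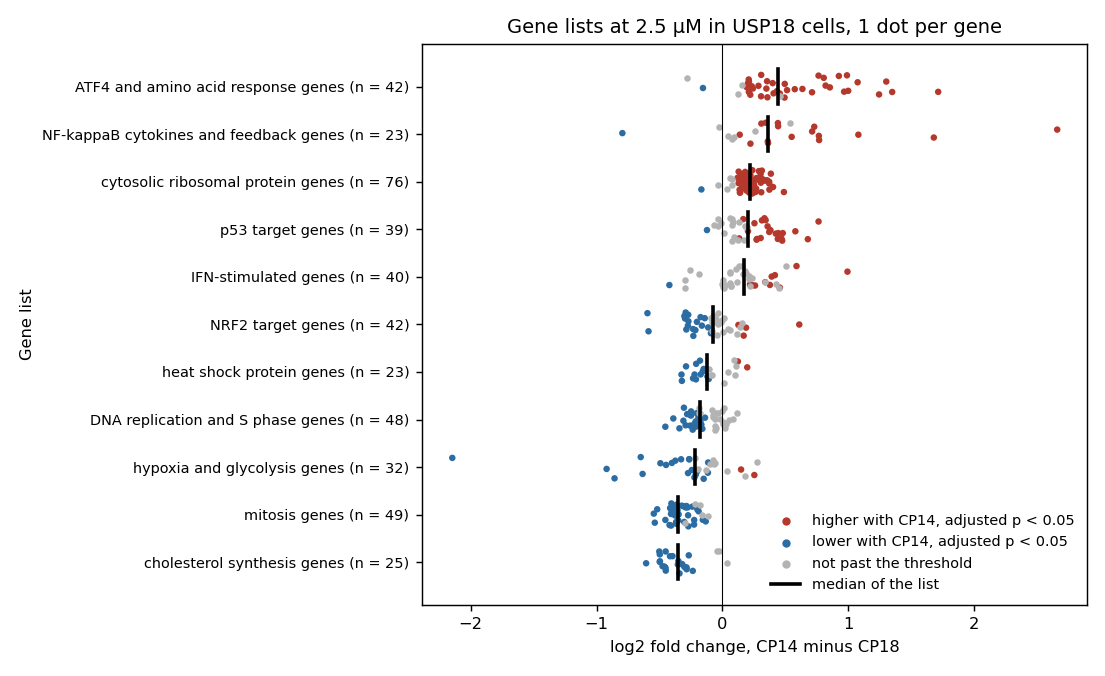
Log2 fold changes of CP14 against CP18 for the members of 11 gene lists, 1 dot per gene (red and blue: adjusted p under 0.05, higher or lower with CP14; grey: not past it), with black bars at the list medians. The ATF4 list has the highest median, 0.44, and the mitosis and cholesterol lists the lowest, both -0.35; the isolated points are TNFRSF9 at 2.66 and CA9 at -2.15.

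NRF2 is the oxidant-sensing factor whose targets detoxify quinones, and of 42 measured targets 18 were lower with CP14 and 4 higher, with a median of -0.08. The counts of this list and of the lists that follow stand against 13.4% of all genes tested lower and 12.5% higher. NQO1 itself was measured at 1241, 1281 and 1287 CPM with CP14 and 1491, 1420.5 and 1502 CPM with CP18. All CP14 libraries lay below all CP18 libraries, by a small amount (log2 fold change -0.21, SE 0.0341, adjusted p = 0.000733). OSGIN1, a growth inhibitor that oxidative stress induces, differed more (-0.60), glutathione reductase GSR by -0.29, peroxiredoxin PRDX1 by -0.30 and GPX2 by -0.59. The efflux pump ABCC3 was higher, at 378, 378 and 364 CPM with CP14 and 237, 254 and 242 CPM with CP18 (log2 fold change 0.61, SE 0.0381, adjusted p = 3.57e-06). HMOX1, haem oxygenase 1, and SRXN1 did not pass (-0.04 and -0.00). Heat shock protein genes were lower in 13 of 23 and higher in 2 (median -0.12), with CHORDC1 at -0.29 and HSPD1 at -0.21. The 2 higher members became 4 without CP14 replicate 3 and 1 without any other 1 library, 4 with at least 10 counts in every library and in the fit of 12 libraries, and 1 in the fit of 36. ER chaperone and unfolded protein response genes were lower in 11 of 25 and higher in 3 (median -0.10), with XBP1 at -0.43, calreticulin CALR at -0.40 and HSP90B1 at -0.28. In the main fit the share higher was not above that of all genes tested in the NRF2, heat shock or ER list. Of 8 aryl hydrocarbon receptor genes 1 was higher, CYP1B1 at 0.63, and 3 were lower, against 12.5% and 13.4% of all genes tested (2 were higher without CP18 replicate 3, with no filter on low counts and in the fits of 12 and 36 libraries).

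Of 39 measured p53 targets 22 were higher with CP14 and 1 lower, against 12.5% and 13.4% of all genes tested. The median of the list was 0.20. The 1 lower member became 0 without any 1 library other than CP18 replicate 3 and in the fit of 36 libraries. It also became 0 in DESeq2, with the replicate number as a block and with no filter on low counts. CDKN1A, the cell cycle inhibitor p21, was measured at 173, 153 and 146 CPM with CP14 and 106, 104 and 106 CPM with CP18. CP14 libraries all exceeded CP18 libraries (log2 fold change 0.58, SE 0.0546, adjusted p = 3.47e-05). GADD45A differed by 0.76, BTG2 by 0.42, FAS by 0.48 and MDM2, the ligase that degrades p53, by 0.25, while GDF15 (-0.01), PLK2 (0.01) and PMAIP1 (0.17) did not pass. The number of higher targets was 16 to 23 when each library was left out.

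Of 40 measured interferon-stimulated genes 10 were higher with CP14, 1 was lower and 29 did not pass, with a median of 0.17. In both directions together the passing share was 27.5%, near the 25.9% of all genes tested. By direction, the share higher was above the 12.5% of all genes tested, and the share lower was below the 13.4%. PARP14 (0.42), SAMD9 (0.59) and MX1 (0.99) were higher, and the lower member was OAS1 (-0.42). ISG15 itself was low, at 1.76, 2.55 and 1.68 CPM with CP14 and 2.54, 2.04 and 2.25 CPM with CP18, with overlapping groups (log2 fold change -0.19, SE 0.230, adjusted p = 0.588). The 10 higher members became 6 without CP14 replicate 2. Of 13 genes of the ISG15 conjugation system 4 were higher (30.8%, against 12.5% of all genes tested) and none lower. They were USP18, the ligase gene TRIM25 at 0.39, HERC6 at 0.34 and HERC5 at 0.26. USP18 is also the gene on the vector, so its entry here cannot be read as that of the cells' own gene. In empty-vector cells USP18 averaged 10.9 CPM with CP14 and 10.5 CPM with CP18. However, HERC5 and HERC6 missed the adjusted p in at least 1 alternative fit. Reads of USP18 and its near-copy USP41 (0.12) cannot be told apart with certainty. Of 20 MHC class I presentation genes 6 were higher and 2 lower, against 12.5% and 13.4% of all genes tested. The trimming peptidase ERAP1 was at 0.55 and the immunoproteasome subunit PSMB8 at 0.43. The 6 higher members became 4 without CP14 replicate 2 or CP18 replicate 2 or 3. Among 17 genes of PARP and NAD metabolism 4 were higher (23.5%, against 12.5% of all genes tested) and none was lower. The 4 were NMNAT2 at 0.73, NMNAT1 at 0.63, CD38 at 0.54 and NADSYN1 at 0.26.

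Of 9 measured AP-1 genes JUN (0.65), FOSL1 (0.62) and JUNB (0.24) were higher, FOS was lower (-0.33) and 5 did not pass. JUN was measured at 55.0, 47.3 and 42.0 CPM with CP14 and 28.9, 31.5 and 31.6 CPM with CP18, and FOS at 38.3, 43.4 and 48.1 CPM with CP14 and 55.4, 56.2 and 51.7 CPM with CP18. Both were free of overlap, in opposite directions. The counts of the AP-1 list and of the lists that follow stand against 12.5% of all genes tested higher and 13.4% lower with CP14. Of 21 other immediate early genes 7 were higher and 4 lower. The MAP kinase phosphatase DUSP5 was the largest upward, at 74.0, 55.7 and 48.3 CPM with CP14 and 28.7, 32.6 and 28.7 CPM with CP18 (log2 fold change 0.99, SE 0.123, adjusted p = 0.000171), just under the size for a call. The orphan nuclear receptors NR4A3 and NR4A2 were lower, at -1.12 and -0.78, and so was CCN2 (connective tissue growth factor) at -0.63. Epithelial-mesenchymal and TGF-β genes were higher in 13 of 34 and lower in 6. Among the lower members was THBS1, the matrix protein thrombospondin 1, at 63.1, 68.8 and 68.0 CPM with CP14 and 101, 103 and 105 CPM with CP18, with the groups far apart (log2 fold change -0.63, SE 0.0453, adjusted p = 9.39e-06). Genes of hepatocyte and endoderm type that A549 cells express were lower in 9 of 26 and higher in 2 (4 without CP14 replicate 1, 1 without CP14 replicate 2 or CP18 replicate 2), with the fibrinogen chains FGA at -0.59 and FGB at -0.66. BEX4 (1.16) joined BEX2 among the 15 genes of the BEX and neuronal list, of which 8 were higher and 2 lower, with UCHL1 at 0.37. In the list of cystatins, B serpins and cornified envelope genes 3 of 10 were higher and 1 lower, CSTA being called. None of the 5 measured metallothionein and zinc export genes passed. Of 7 small RNAs that carry no poly(A) tail 1 passed (14.3%, against 25.9% of all genes tested), SNORD3A at -1.01, which missed the adjusted p without CP14 replicate 2, without CP18 replicate 1 and in the fit of 36 libraries. RN7SL1 (0.38) and RN7SL2 (0.59), RNAs of the signal recognition particle, did not pass, but both passed upward without CP14 replicate 3, without CP18 replicate 3 and with no filter on low counts. The passing count was 4 of 7 without CP14 replicate 3, with 2 in each direction. The small RNAs together held 0.0104% to 0.0243% of the counts of a library. Of 22 genes listed from the study's text 19 were tested, of which 2 were higher, 7 lower and 10 did not pass.

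Motif letters in the promoters were counted on both strands of 27303 RefSeq promoters of 300 bases. The composite site TGATGNAAN was present in 3.67% of all promoters, in 17.9% of the ATF4 list (5 of 28 members with an entry) and in 8.79% of called genes higher with CP14 (8 of 91). The NF-κB pattern was in 6.46% of all promoters, in 55.6% of the NF-κB list (10 of 18) and in 14.3% of the called genes higher with CP14 (13 of 91). TTNGAA was in 34.9% of all promoters and CCAAT in 35.7%, and each was in 76.2% of the mitosis list (32 of 42). CCAAT was also in 78.9% of the cholesterol list (15 of 19), where the sterol site TCACNCCAC was in 1 of 19, or 5.26%, against 1.15% of all promoters. ACGTG, which also matches the E-box CACGTG, was in 21.6% of all promoters, in 48.3% of the hypoxia list (14 of 29) and in 28.6% of called genes lower with CP14 (6 of 21). The AP-1 letters TGANTCA were in 7.76% of all promoters and in 2.20% of the called genes higher with CP14. These shares describe letters in a short window and not binding.

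The same pair of compounds at 2.5 µM was also measured in empty-vector cells, with no library in common, which gives a matched comparison in the other cells. There 15 of 15085 genes were called (0.0994%), 9 higher (0.0597%) and 6 lower with CP14 (0.0398%), and 670 passed the adjusted p (4.44%), with 2.13% of genes higher and 2.31% lower. DESeq2 called none of them, with 621 past its adjusted p. Of the 155 genes called higher in USP18 cells 125 were tested in empty-vector cells, 104 had the same direction and 27 passed, and their median log2 fold change was 0.36 there. Of the 41 called lower, 28 were tested, 23 had the same direction and 3 passed, with a median of -0.43. The difference between the cell types itself was tested by an interaction over 12 libraries, and 808 of 15706 genes passed (5.14%), 425 with a more positive (2.71%) and 383 with a more negative (2.44%) CP14 minus CP18 contrast in USP18 cells. The genes named next were chosen for their contrast in the USP18 libraries, which are also an arm of the interaction, so a larger contrast in that arm is favoured by the choice. LAMP3 differed by 0.21 (95% interval -0.54 to 0.96) in empty-vector cells, and the interaction was 2.66 (adjusted p = 0.00694). CSTA differed there by 1.26 (95% interval 0.87 to 1.65), with an interaction of 1.18 (adjusted p = 0.00774). FAM129A, at 1.15 (95% interval 0.95 to 1.34), missed the threshold for the interaction (adjusted p = 0.0531).

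In several lists many members had a contrast that differed between the cell types, where 5.14% of all genes tested did. In empty-vector cells the median of the mitosis list was -0.03 with 4 of 49 lower, and 30 of 49 members passed the interaction, all in the negative direction. The cholesterol list had a median of -0.05 with 3 of 25 lower, and 12 passed, all negative. Ribosomal protein genes had a median of 0.06 with 19 of 76 higher, and 45 passed, all positive. The ATF4 list had a median of 0.11 with 14 of 42 higher, and 19 passed, all positive. By contrast 4 of 48 S phase genes and 2 of the 23 NF-κB genes passed. Other lists were lower with CP14 in both cell types. In empty-vector cells 15 of 42 NRF2 targets were lower and 1 higher (median -0.09). There 14 of 32 hypoxia and glycolysis genes were lower and none higher (median -0.13), where 2.31% of all genes were lower. In each of these lists 7 members passed the interaction. HMGCS1 was 0.08 (95% interval 0.02 to 0.14) in empty-vector cells, an interaction of -0.53 (adjusted p = 0.000431), and PLK1 was -0.09 (95% interval -0.16 to -0.03), an interaction of -0.44 (adjusted p = 0.00193). THBS1 had 60.3 ± 1.64 CPM with CP14 and 60.9 ± 0.384 CPM with CP18 in empty-vector cells, against 66.1 ± 3.23 and 102.3 ± 2.39 CPM in USP18 cells on the same scaling (SD, n = 3 each). Its interaction was -0.61 (adjusted p = 0.000102). The number of genes past the interaction fell to 417 without CP18 replicate 1 of the USP18 cells and was between 463 and 537 without CP14 replicate 2 or 3 or any 1 CP18 replicate of the empty-vector cells.

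**Figure D4:**
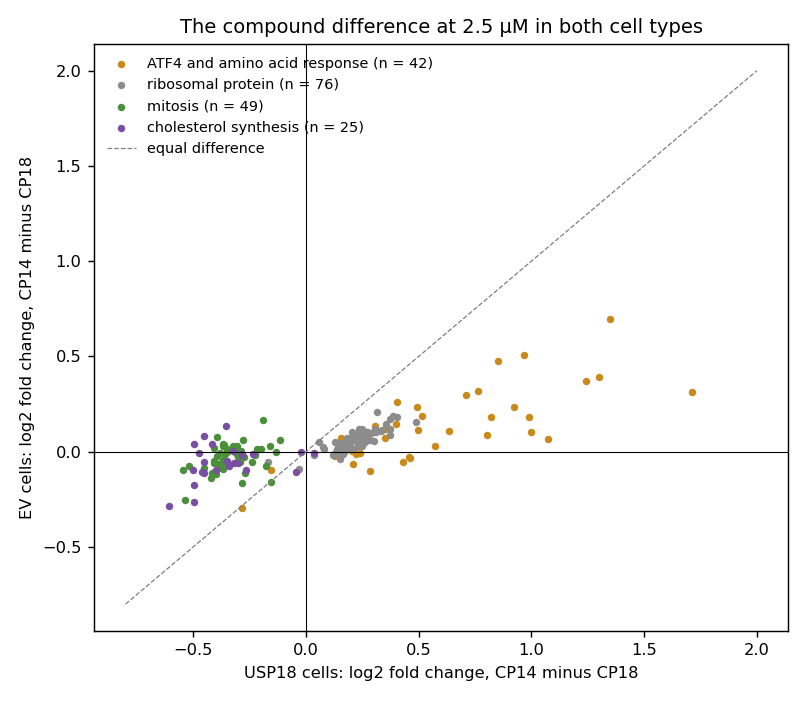
Log2 fold change of CP14 against CP18 at 2.5 µM in USP18 cells (horizontal) and in empty-vector cells (vertical) for 4 gene lists, 1 dot per gene, with a dashed line of equal difference. Most dots lie nearer to 0 on the vertical axis than on the horizontal one, for example a median of -0.35 against -0.03 for the 49 mitosis genes.

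CP14 and CP18 were compared here at 3 matched doses in USP18 cells and at 2.5 µM in empty-vector cells, which makes 4 matched comparisons. With p-values adjusted over all 4 together 192 genes were called at 2.5 µM in USP18 cells. At 1 µM no gene of 15009 was called and none passed the adjusted p in edgeR, while 1219 had an unadjusted p under 0.05 (8.12%), and DESeq2 called none, with 12 past its adjusted p. With no filter on low counts edgeR called 60 genes at 1 µM, 46 higher and 14 lower. That does not show that the compounds act alike at 1 µM. CSTA differed there by 0.77 (95% interval 0.31 to 1.24) and ALDH1L2 by 0.32 (95% interval 0.13 to 0.51), whereas ZFAS1 differed by 0.04 (95% interval -0.04 to 0.11), PLK1 by -0.04 (95% interval -0.12 to 0.04) and HMGCS1 by 0.04 (95% interval -0.04 to 0.11). Of the genes called higher at 2.5 µM, 90 of 129 tested had the same direction at 1 µM, with a median of 0.14, and of those called lower 24 of 40, with a median of -0.20. The change of the contrast from 1 to 2.5 µM passed in 1472 of 15546 genes (9.47%), 689 upward (4.43%) and 783 downward (5.04%). The total of 1472 was 926 without CP18 replicate 1 at 2.5 µM and 981 without CP14 replicate 1 at 1 µM.

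At 5 µM the 2 compounds had 2484 of 15112 genes called (16.4%), 1294 higher (8.56%) and 1190 lower with CP14 (7.87%). Of the genes called higher at 2.5 µM, 138 of 148 tested kept their direction and 116 were called, with a median of 1.80. Of those called lower, 21 of 31 tested kept their direction and 16 were called, with a median of -1.17. The genes named next were chosen for their contrast at 2.5 µM, which is also an arm of the test of change. A smaller contrast at 5 µM is thus favoured by the choice. PHGDH had a smaller contrast at 5 µM than at 2.5 µM (0.29, adjusted p of the change = 0.000174). CSTA stood at 2.24, and its change missed the threshold (adjusted p = 0.542). NR4A3 changed sign, from -1.12 at 2.5 µM to 1.02 at 5 µM (adjusted p of the change = 1.4e-06). The mitosis list reached a median of -1.83 with all 49 genes lower at adjusted p under 0.05, where 34.6% of all genes were, the S phase list -1.72 with all 48 lower, the cholesterol list -1.05 and the ATF4 list 0.84. In the interferon list 15 of 39 genes were higher and 13 lower at 5 µM, with a median of 0.01, shares near those of all genes (5004 higher and 5222 lower of the 14744 tested at both doses). The change of the contrast from 2.5 to 5 µM passed in 7614 of 15613 genes (48.8%), 22.0% upward and 26.7% downward. These 5 µM and 1 µM libraries share no library with the 2.5 µM comparison, but the 2 tests of change by dose share the 2.5 µM libraries.

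**Figure D5:**
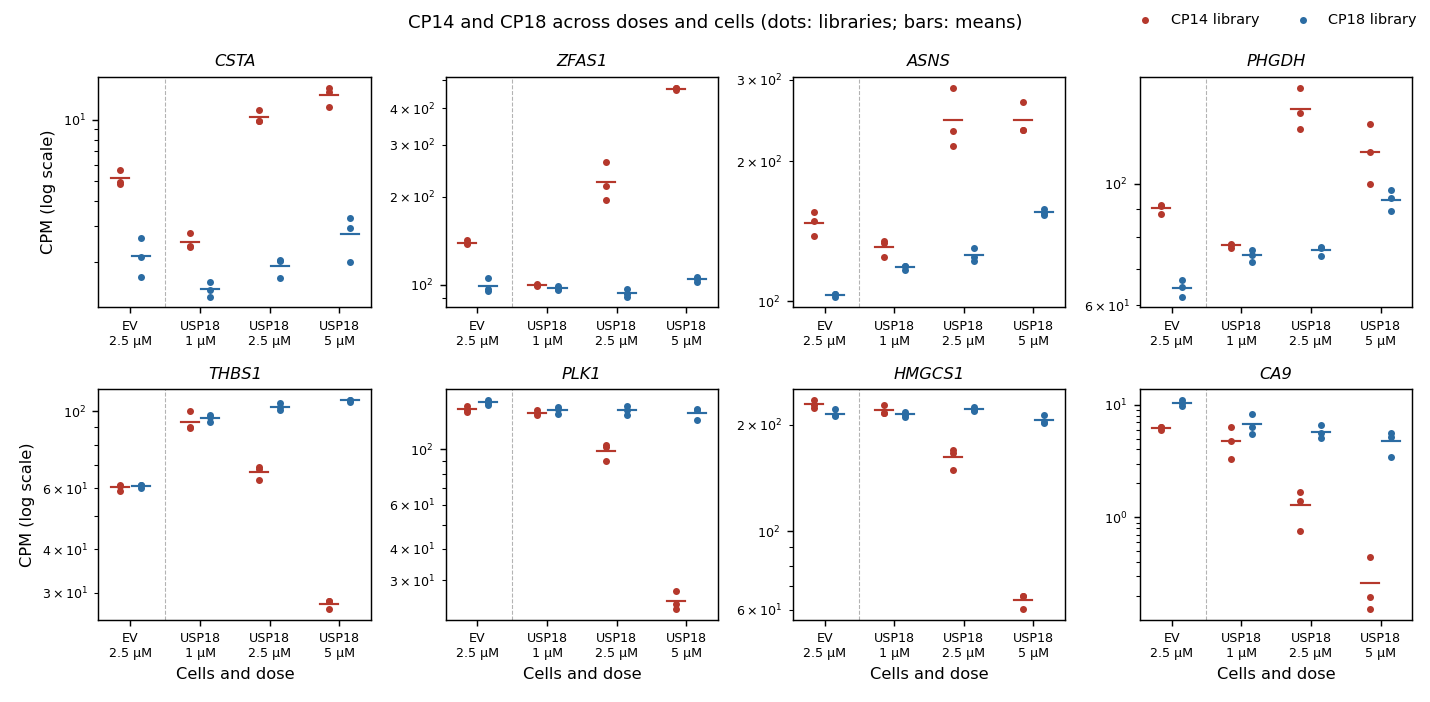
Levels of 8 genes (CPM, log axes) with CP14 and CP18 in empty-vector (EV) cells at 2.5 µM and in USP18 cells at 1, 2.5 and 5 µM, with each library as a dot and the mean of 3 as a bar, all 24 libraries on 1 scaling. CSTA, ZFAS1, ASNS and PHGDH lie higher with CP14 at 2.5 µM in USP18 cells, while THBS1, PLK1, HMGCS1 and CA9 lie lower there. At 1 µM in USP18 cells the latter 4 overlap between the compounds. The former 4 lie higher with CP14 there without overlap, only slightly so in ZFAS1, ASNS and PHGDH.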

How the data were processed

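RNA from A549 cells treated for 48 h was sequenced by the authors. Per the labels, the kit was stranded and selected poly(A) RNA, whereas the methods name a ribosomal RNA depletion, and which was used was not settled. The deposited values were expected counts per gene from RSEM (version 1.3.1 with STAR 2.7.0f, cutadapt 1.18 and hg38 in the submitters' processing notes, another RSEM version in the methods), made by the authors and not normalized. Of the values, 94% were whole numbers. Of 58870 rows, 58517 identifiers matched the human GENCODE v44 annotation. The methods name another GENCODE version with the human genome for mapping and a mouse annotation for quantification.

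Expected counts were rounded to whole numbers. Genes passed edgeR's filterByExpr (minimum count 10, minimum total 15), were scaled by TMM and tested by the quasi-likelihood test of edgeR 4.0.16 in R 4.3.3 on the 6 libraries alone, with Benjamini-Hochberg adjustment. A call needed an adjusted p under 0.05 and an absolute log2 fold change over 1. Each other matched pair was fitted on its own 6 libraries, and differences between contrasts were tested as interactions over 12 libraries. The alternatives were DESeq2 1.42.0, other scaling and filters, wider fits, glmTreat, a replicate block and leaving out each library. Scripts were tested on simulated data. Depth was 16673228 to 24067954 counts in the 24 libraries used, and 3 counts equalled 0.125 to 0.175 CPM in the main 6.

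Named were, in each direction, the 12 called genes with the largest change and the 5 with the smallest p (groups apart, at least 20 counts in each library of the higher group), USP18, called list members, up to 4 members of each list by smallest p, and the 4 genes with the smallest p in each direction of an interaction. Some of the genes this rule takes are not reported here. Further list members, and those that did not pass, were picked after their values were seen. The comparison, members and lists were chosen with earlier results of these data known. Promoter sequences and starts came from RefSeq (GRCh38.p14). Of the other 30 libraries, 12 with CP14 or CP18 in empty-vector cells entered only the fit of 36 libraries, and the rest were not used here.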

Additional observations from a re-analysis of the deposited data

Results flagged for a closer look

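The contrast of CP14 against CP18 at 2.5 µM differed between USP18 and empty-vector cells in 808 genes by an interaction test in edgeR (adjusted p under 0.05). The genes with the smallest p on the positive side were PTGES, the inducible prostaglandin E synthase, with a difference of 0.74 on the log2 scale, JUNB with 0.46, the adaptor FYB1 with 0.59 and EPAS1, which encodes HIF-2α, with 0.38. PTGES averaged 98.4 ± 9.92 CPM with CP14 and 57.1 ± 0.664 CPM with CP18 in USP18 cells, against 65.9 ± 3.21 and 63.3 ± 3.49 CPM in empty-vector cells (SD, n = 3 each). JUNB changed direction, at 0.24 in USP18 cells and -0.21 in empty-vector cells. On the negative side stood THBS1 with -0.61, HMGCS1 with -0.53, ECT2, a guanine nucleotide exchange factor of cytokinesis, with -0.42 and the splicing factor SRSF1 with -0.28.

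Between 1 and 2.5 µM in USP18 cells the contrast changed in 1472 genes by the same kind of test. ZFAS1 changed by 1.22, PHGDH by 0.80 and the snoRNA host gene C6orf48 by 1.11 upward. The homeobox gene LHX8 changed by -0.73, the mitotic gene PIMREG by -0.65 and THBS1 by -0.59.

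Between 2.5 and 5 µM the contrast changed in 7614 genes. PHLDA1 changed by 1.56, the receptor tyrosine kinase AXL by 1.75, PPP1R15A, which restores translation by dephosphorylating eIF2α, by 2.51 and the phosphatase PTPRH by 2.32. RRM2, a subunit of ribonucleotide reductase, changed by -2.91, the synaptic gene CPLX2 by -2.32 and lamin B1, LMNB1, by -2.05. RRM2 averaged 32.6 ± 2.44 CPM with CP14 and 288 ± 9.19 CPM with CP18 at 5 µM, against 232 ± 7.45 and 273 ± 10.1 CPM at 2.5 µM (SD, n = 3 each). The cause of these differences was not tested.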

How the results depend on the processing

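Against the 196 calls, RLE scaling gave 195 (194 shared), DESeq2 138 (136 shared), the fits of 12 and 36 libraries 227 (179 shared) and 259 (176 shared), and joint adjustment 192. The count moved to 313 with no filter on low counts, 110 with at least 10 counts in every library, 78 with glmTreat against a log2 fold change of 0.5 and 3895 with the adjusted p alone. Leaving out each library gave 158 to 239 calls, 158 without CP14 replicate 1 or CP18 replicate 1. In no alternative did a called gene change sign.

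In empty-vector cells the 15 calls became 81 without a filter, 8 with at least 10 counts in every library, 0 in DESeq2 (621 past its adjusted p, 1842 at an unadjusted p under 0.05) and 9 to 20 without each library, 9 without CP18 replicate 3. At 1 µM the 0 calls became 60 without a filter and 0 to 1 without each library. At 5 µM there were 2524 to 2660 calls without each library. The interactions passed in 417 to 1126 genes (cell type), 926 to 1663 (1 to 2.5 µM) and 7058 to 7601 (2.5 to 5 µM) without each library.

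Replicate numbers did not pair the libraries: same-numbered CP14 and CP18 libraries had correlations of -0.0329, -0.000441 and -0.00215 in their deviations. With the replicate number as a block 175 genes were called (165 shared), HIST1H1C and HIST2H2BE missed the adjusted p, 16 in empty-vector cells, 0 at 1 µM and 2466 at 5 µM, and the interactions passed in 854, 1134 and 7481 genes.

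Over all alternative fits, those without 1 library included, values near 0 changed sign in MT1X, COL1A1 and DYNLL1, none of which passed. Their ranges on the log2 scale were -0.18 to 0.057 (MT1X), -0.25 to 0.11 (COL1A1) and -0.0031 to 0.037 (DYNLL1). Over the named genes 2115 values kept direction and side of the threshold, 42 lost it and 19 gained it. Where moved, the cause was not tested, apart from filters, which change the genes tested. Genes under 20 counts are limited by depth.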

Other observations

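Gene families picked after their values were seen were also counted at 2.5 µM in USP18 cells, against 12.5% of all genes tested higher and 13.4% lower with CP14. Proteasome subunit genes, which build the main protease of the cell, were lower with CP14 in 25 of 37 and higher in 1, with a median log2 fold change of -0.17, and the higher member was PSMB8 (0.43), an interferon-inducible subunit. Genes of the CCT chaperonin, which folds actin and tubulin, were lower in 8 of 9 (median -0.19), and CCT6B, with a mean under 1 CPM with each compound, did not pass (0.69). SRSF splicing factor genes were lower in 7 of 12 (median -0.18), and HNRNP genes, pseudogenes left out, in 12 of 21 with 1 higher (median -0.10).

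Genes that host snoRNAs in their introns were higher in 9 of 25 and lower in 2, with ZFAS1 at 1.26, C6orf48 at 1.09, GAS5 at 1.08 and SNHG29 at 0.79, while SNHG26 was -0.59 and SNHG21 was -0.50. Interleukin and interleukin receptor genes were higher in 9 of 25 and lower in none. Of these IL31RA (2.02), IL20RB (1.15) and IL32 (1.04) were called higher, as were 1.03% of all genes tested. Read-through genes, whose reads overlap those of their neighbours, were higher in 4 of 62 entries and lower in 6, both below the shares of all genes tested. By contrast 2 entries were called higher and 3 called lower, both above the 1.03% and 0.273% of all genes tested. Among the read-through genes TMEM189-UBE2V1 was listed at 0 in all CP14 libraries and averaged 1.52 CPM with CP18.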
